A study of Mus musculus with 7 samples.

Results

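The 10 genes described here lie near one another on mouse chromosome 1: Ephx1, 9130409I23Rik, Nvl, Lbr, Enah, Srp9, Capn2, Capn8, Susd4 and Tlr5, in that order. They were chosen by their position and by the measured fold changes of several of them between TET1 KO and WT livers, and were found in the deposited count tables by gene symbol and joined over livers by Ensembl identifier, 10 genes of 51426. Because the comparison of TET1 KO with WT helped to choose them, their levels, differences and calls in that comparison are a description of the chosen genes and support nothing further. Liver mRNA was sequenced from 3 WT and 4 TET1 KO male mice. Both groups received a high fat diet (HFD) for 16 weeks from 8 weeks of age, and no group on normal chow was sequenced. TET1 is one of the enzymes that oxidize methylated cytosine in DNA, and the TET1 KO mice are described as lacking it in the whole body. The labels give C57BL/6J as the strain of both groups. The study's methods list a heterozygous TET1 knockout line on a mixed background of B6 and another strain, and state a C57BL/6J background or backcrossing for the floxed TET1 and Cre mice without naming the knockout line there. The study writes the sequenced mice as TET1-/- and TET1wt/wt, apart from its floxed mice crossed with β-actin Cre, which ties them to the knockout line, and it calls the controls littermates. Total counts ran from 15005277 to 22746138 per liver. Levels are given as CPM (reads of a gene per 1000000 reads of the library total after TMM scaling, which adjusts totals for composition), and 1 CPM corresponded to 14.2 to 24.2 reads. Tet1 itself, on chromosome 10, had 1, 4 and 1 reads in the WT livers and 2, 1, 4 and 1 reads in the TET1 KO livers, which is too few to check the genotype labels.

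Ephx1 encodes microsomal epoxide hydrolase, an abundant liver enzyme that opens reactive epoxides made by cytochrome P450 enzymes. Susd4 encodes a membrane protein with sushi domains that restrains complement, the plasma cascade that liver cells largely supply. Capn2 and Capn8 encode calpains, calcium-dependent cysteine proteases. The Capn2 product is the large subunit of the widely expressed m-calpain, whereas the Capn8 product is best known from the stomach lining. Tlr5 encodes the receptor for bacterial flagellin. The rest serve functions common to most cells. Nvl encodes an AAA ATPase of ribosome assembly, Srp9 a subunit of the signal recognition particle that directs nascent proteins to the endoplasmic reticulum, Lbr the lamin B receptor of the inner nuclear membrane, which also has sterol reductase activity, and Enah a regulator of actin filament growth. 9130409I23Rik carries a clone name only.

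The promoter sequences of the 4 genes that differed most, and of Capn2 as the neighbour and relative of Capn8, are given because TET1 acts on cytosine in CpG dinucleotides. They are the 250 bases before the start in the RefSeq table of build GRCm38.p6, read 5′ to 3′ on the strand of the gene, with each CpG in capitals. The start used for a promoter need not be the outermost base of the gene: the windows of 9130409I23Rik and Capn8 lie wholly inside the annotated spans, and that of Susd4 partly so. The Ephx1 promoter is at chr1:181017570-181017819 on the minus strand, that of 9130409I23Rik at chr1:181050987-181051236 on the plus strand, that of Capn8 at chr1:182564757-182565006 on the plus strand, that of Susd4 at chr1:182763966-182764215 on the plus strand and that of Capn2 at chr1:182517611-182517860 on the minus strand.
Ephx1: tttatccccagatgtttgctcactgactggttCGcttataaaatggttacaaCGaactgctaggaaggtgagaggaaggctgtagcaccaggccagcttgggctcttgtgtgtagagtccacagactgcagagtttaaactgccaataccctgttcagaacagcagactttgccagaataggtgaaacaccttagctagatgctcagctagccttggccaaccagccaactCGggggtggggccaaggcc
9130409I23Rik: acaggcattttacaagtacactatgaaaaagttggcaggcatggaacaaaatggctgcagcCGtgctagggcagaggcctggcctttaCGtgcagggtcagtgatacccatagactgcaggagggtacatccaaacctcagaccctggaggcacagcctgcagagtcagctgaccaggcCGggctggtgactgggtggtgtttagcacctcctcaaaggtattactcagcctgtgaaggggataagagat
Capn8: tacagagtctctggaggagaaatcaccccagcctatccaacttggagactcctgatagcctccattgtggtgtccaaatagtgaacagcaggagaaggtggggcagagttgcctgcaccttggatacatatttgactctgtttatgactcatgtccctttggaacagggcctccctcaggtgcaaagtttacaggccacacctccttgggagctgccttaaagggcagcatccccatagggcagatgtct
Susd4: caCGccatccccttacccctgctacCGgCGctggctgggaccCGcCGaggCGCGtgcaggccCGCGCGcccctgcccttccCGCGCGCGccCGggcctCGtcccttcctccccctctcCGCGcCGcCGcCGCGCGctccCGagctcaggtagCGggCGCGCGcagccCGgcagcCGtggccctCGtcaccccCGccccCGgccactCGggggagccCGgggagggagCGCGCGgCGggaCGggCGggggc
Capn2: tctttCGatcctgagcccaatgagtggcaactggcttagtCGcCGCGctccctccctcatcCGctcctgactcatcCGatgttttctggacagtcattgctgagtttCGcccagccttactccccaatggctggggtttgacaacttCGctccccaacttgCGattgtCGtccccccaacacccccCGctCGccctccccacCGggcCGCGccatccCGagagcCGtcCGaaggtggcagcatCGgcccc

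These promoters differed widely in CpG number. Capn8 had 0 CpG, as did 7.87% of the promoters in the table. Ephx1 and 9130409I23Rik had 3 CpG each, a number that 37.8% of the 32851 promoters, those of untested genes included, did not exceed. Capn2 had 19 CpG. Susd4 had 41, a number reached by 1.09% of promoters, and a further Susd4 start in the table had 10. Capn8 and the first Susd4 start, both of genes higher in TET1 KO livers, were at opposite ends of this scale, and the second Susd4 start was not. DNA methylation was not part of the data analysed here, and the CpG number is a property of the reference sequence only.

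Of the 10 genes, 4 were called, beside 2.02% of the 14754 genes tested. A gene was called where the quasi-likelihood test of edgeR gave an adjusted p (Benjamini-Hochberg, over all genes tested) under 0.05. Ephx1 and 9130409I23Rik were lower in TET1 KO livers, a direction that 1.15% of all tested genes took with a call. Capn8 and Susd4 were higher, as were 0.874% of all tested genes with a call. DESeq2 called 5 of the 10, beside 8.74% of the genes it tested. Tlr5 was lower without a call by edgeR, and the other 5 genes were not called, with log2 fold changes from -0.12 to 0.46. The 10 genes span 1.99 Mb and did not move in one direction, with a median log2 fold change of 0.01 beside 0.01 over all genes tested. Since the same comparison helped to choose the genes, nothing is read from the 4 calls against the share over all genes.

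**Figure D1:**
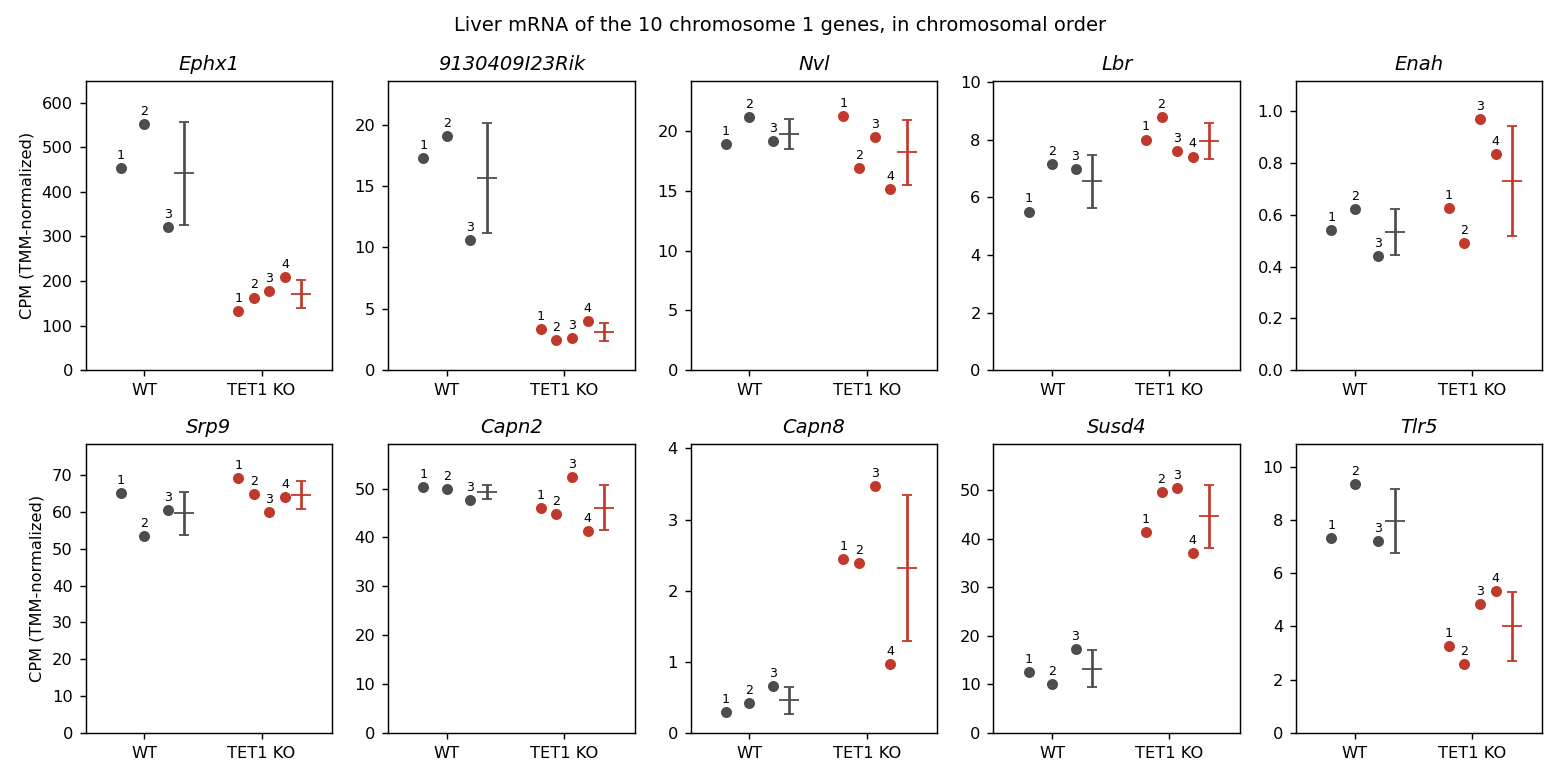
Level of each of the 10 genes in CPM (scaled by TMM, linear axes from 0), with 1 point per liver numbered by replicate and the mean ± SD beside it (3 WT, 4 TET1 KO). Ephx1, 9130409I23Rik and Tlr5 were lower and Capn8, Susd4 and, by a small margin, Lbr were higher in every TET1 KO liver than in every WT liver.

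Ephx1 (ENSMUSG00000038776, chr1:180989556-181017569, minus strand, GRCm38) was the most abundant of the 10 genes, and its level in TET1 KO livers was less than in any WT liver. Its level was 454, 551 and 320 CPM in the WT livers and 132, 163, 178 and 209 CPM in the TET1 KO livers. The groups did not overlap, and the lowest WT liver was 1.53-fold above the highest TET1 KO liver. The mean was 442 ± 116 CPM (SD, n = 3) in WT and 171 ± 32.2 CPM (SD, n = 4) in TET1 KO. The log2 fold change was -1.37 ± 0.21 (SE), 2.59-fold lower in TET1 KO, with an edgeR adjusted p of 0.0117. Between 2111 and 13316 reads per liver stood behind these values. Without WT replicate 2, the liver with the most Ephx1 mRNA, the log2 fold change was -1.19 and the edgeR adjusted p was 0.0719. Liver tissue holds several cell types, and in bulk RNA fewer cells of a type and less RNA per cell cannot be told apart.

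The neighbouring gene 9130409I23Rik (ENSMUSG00000038768, chr1:181035606-181060761, plus strand) lies 18.0 kb beyond Ephx1 along the chromosome and is read from the opposite strand. It had 17.3, 19.1 and 10.6 CPM in the WT livers and 3.38, 2.46, 2.66 and 4.03 CPM in the TET1 KO livers. The gap between the groups was the widest among the 10 genes, with the lowest WT liver 2.64-fold above the highest TET1 KO liver. The mean was 15.7 ± 4.45 CPM (SD, n = 3) in WT and 3.13 ± 0.717 CPM (SD, n = 4) in TET1 KO. The log2 fold change was -2.32 ± 0.24 (SE), 4.98-fold lower in TET1 KO, and its adjusted p of 0.00267 ranked 7 among all genes tested. Leaving out any single liver moved the log2 fold change between -2.55 and -2.16, with an edgeR adjusted p of at most 0.0248. One other gene overlaps its span, Gm17967, which had 0 to 2 reads per liver.

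Ephx1 and 9130409I23Rik were lower together but not in the same proportion. Within WT livers the ratio of Ephx1 to 9130409I23Rik CPM was nearly constant at 26.2, 28.9 and 30.1. In the TET1 KO livers the ratio was 39.1, 66.0, 67.2 and 51.9, above every WT value. WT replicate 3 had the least and WT replicate 2 the most of either transcript among WT livers, and TET1 KO replicate 4 had the most among TET1 KO livers.

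Capn8 (ENSMUSG00000038599, chr1:182564749-182634456, plus strand) was scarce in WT livers and higher in TET1 KO livers. It had 6, 10 and 12 reads in the WT livers and 39, 34, 68 and 21 reads in the TET1 KO livers. As CPM these were 0.295, 0.414 and 0.662 in WT and 2.44, 2.39, 3.47 and 0.973 in TET1 KO. The groups did not overlap, although TET1 KO replicate 4 was only 1.47-fold above WT replicate 3. The mean was 0.457 ± 0.187 CPM (SD, n = 3) in WT and 2.32 ± 1.03 CPM (SD, n = 4) in TET1 KO. The log2 fold change was 2.34 ± 0.48 (SE), the greatest SE among the 10 genes, and the edgeR adjusted p was 0.0378. Its call did not hold when single livers were left out. The edgeR adjusted p passed 0.05 in 6 of 7 such fits, reaching 0.198 without WT replicate 2, while the log2 fold change stayed between 2.05 and 2.64; only without TET1 KO replicate 4 did the call hold. It was 0.0642 without WT replicate 1, 0.0541 without WT replicate 3, and 0.0676, 0.0812 and 0.102 without TET1 KO replicates 1, 2 and 3.

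Of 6 markers of stomach and gut epithelium, 0 had enough reads to be tested, and Tff1, Gkn1, Gkn2 and Muc5ac had 0 reads in every liver. Their summed level was 0 to 0.124 CPM in WT and 0 to 0.742 CPM in TET1 KO livers. The other markers, Tff2 and Vil1, had 0 to 9 and 0 to 7 reads per liver. The part of such cells in the Capn8 level was not tested.

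Capn2 (ENSMUSG00000026509, chr1:182467253-182517610, minus strand) lies 47.1 kb before Capn8 along the chromosome and differed by much less between the groups. Its level was 50.3, 50.0 and 47.6 CPM in WT and 46.0, 44.8, 52.3 and 41.3 CPM in TET1 KO livers. The groups overlapped, and the log2 fold change was -0.10 ± 0.12 (SE; 95% interval -0.34 to 0.14). Capn2 reads outnumbered those of Capn8 in every liver, but the CPM ratio of Capn2 to Capn8 was 171, 121 and 71.9 in WT and 18.9, 18.7, 15.1 and 42.5 in TET1 KO livers. These ratios did not overlap between groups. The GENCODE M1 transcripts of the 10 genes, these related calpains included, shared 0 stretches of 50 bases in any pair.

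Susd4 (ENSMUSG00000038576, chr1:182764044-182896596, plus strand) lies 130 kb beyond Capn8 and was higher in every TET1 KO liver. Its level was 12.5, 9.98 and 17.3 CPM in the WT livers and 41.4, 49.6, 50.4 and 37.1 CPM in the TET1 KO livers. The groups were far apart, the lowest TET1 KO liver being 2.14-fold above the highest WT liver. The mean was 13.3 ± 3.72 CPM (SD, n = 3) in WT and 44.6 ± 6.46 CPM (SD, n = 4) in TET1 KO. The log2 fold change was 1.75 ± 0.20 (SE), 3.37-fold higher, and its adjusted p of 0.00346 ranked 14 among all genes tested. Leaving out single livers gave log2 fold changes of 1.57 to 1.97 and an edgeR adjusted p of at most 0.0248. Between 241 and 986 reads per liver stood behind these values.

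Tlr5 (ENSMUSG00000079164, chr1:182954752-182976044, plus strand), 58.2 kb beyond Susd4, was lower in every TET1 KO liver but was not called. It had 7.33, 9.36 and 7.22 CPM in the WT livers and 3.25, 2.60, 4.85 and 5.33 CPM in the TET1 KO livers. The groups did not overlap, with the lowest WT liver 1.36-fold above the highest TET1 KO liver. The log2 fold change was -0.98 ± 0.25 (SE) and the edgeR adjusted p was 0.0641, the nearest to the threshold on its outer side, as Capn8 was on its inner side. The call depended on the setting. Without TET1 KO replicate 4 the log2 fold change was -1.15 with an edgeR adjusted p of 0.0359, and DESeq2 gave -1.01 with an adjusted p of 0.0114. The adjusted p was over 0.05 in 10 of 14 alternatives, including 6 of the 7 edgeR fits without 1 liver, and reached 0.282 without WT replicate 2. Kupffer cell and macrophage markers, of which 0 of 6 were called, had a summed level of 172 to 284 CPM in WT and 127 to 285 CPM in TET1 KO livers. Neutrophil markers, of which 3 of 6 were tested and 0 called, summed to 3.48 to 37.8 CPM in WT and 4.24 to 13.3 CPM in TET1 KO. The part of these cells in the Tlr5 level was not tested.

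The 4 genes with functions common to most cells lie between these loci and were not called. Nvl (chr1:181087138-181144214, minus strand), 26.4 kb beyond 9130409I23Rik, had 18.9, 21.2 and 19.2 CPM in WT and 21.3, 16.9, 19.5 and 15.2 CPM in TET1 KO livers. The groups overlapped, and the log2 fold change was -0.12 ± 0.15 (SE; 95% interval -0.41 to 0.17). Srp9 (chr1:182124737-182132415, plus strand) had 65.0, 53.4 and 60.5 CPM in WT and 69.3, 64.9, 60.1 and 64.0 CPM in TET1 KO livers. The groups overlapped here too, with a log2 fold change of 0.11 ± 0.12 (SE; 95% interval -0.13 to 0.35).

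Lbr (chr1:181815315-181842401, minus strand) was slightly higher in TET1 KO livers, at 5.51, 7.16 and 7.0 CPM in WT and 8.01, 8.80, 7.61 and 7.42 CPM in TET1 KO. The groups did not overlap but nearly touched, the lowest TET1 KO liver being 1.03-fold above the highest WT liver. The log2 fold change was 0.28 ± 0.17 (SE) and the edgeR adjusted p was 0.308. Enah (chr1:181896384-182027556, minus strand) was near the limit of detection with 7 to 19 reads per liver. It had 0.541, 0.621 and 0.441 CPM in WT and 0.626, 0.493, 0.971 and 0.834 CPM in TET1 KO livers, and the groups overlapped. Its log2 fold change of 0.46 ± 0.39 (SE; 95% interval -0.30 to 1.23) leaves a wide range that includes 0.

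Between the groups, 6 of the 10 genes did not overlap, beside 22.5% of all genes tested. In 3 the TET1 KO livers were the higher ones, beside 11.7% of all genes, and in 3 the lower ones, beside 10.8%. As CPM per kb of exon, with exon lengths of the GENCODE M1 annotation, the order of mean levels in WT livers was Ephx1 at 220, Srp9 at 43.2, Capn2 at 15.3, 9130409I23Rik at 8.26, Nvl at 6.47, Susd4 at 3.76, Tlr5 at 2.26, Lbr at 1.85, Enah at 0.125 and Capn8 at 0.123. In TET1 KO livers the means per kb were 85.1 for Ephx1, 46.8 for Srp9, 14.3 for Capn2, 12.6 for Susd4, 5.95 for Nvl, 2.24 for Lbr, 1.65 for 9130409I23Rik, 1.14 for Tlr5, 0.626 for Capn8 and 0.17 for Enah. Susd4 thus passed Nvl, and 9130409I23Rik fell below Nvl and Lbr. Neighbours in the WT order whose ranges over livers overlapped were 9130409I23Rik with Nvl, at 5.61 to 10.1 and 6.19 to 6.94 CPM per kb, and Enah with Capn8, at 0.103 to 0.145 and 0.0796 to 0.179 CPM per kb. Tlr5 and Lbr came close without overlapping in WT, at 2.05 to 2.66 and 1.55 to 2.02 CPM per kb. In the TET1 KO order, Susd4 and Capn2 overlapped at 10.5 to 14.3 and 12.8 to 16.2 CPM per kb, as did 9130409I23Rik and Tlr5 at 1.30 to 2.12 and 0.739 to 1.51 CPM per kb, Lbr and 9130409I23Rik at 2.09 to 2.48 and 1.30 to 2.12 CPM per kb, and Tlr5 and Capn8 at 0.739 to 1.51 and 0.263 to 0.938 CPM per kb.

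**Figure D2:**
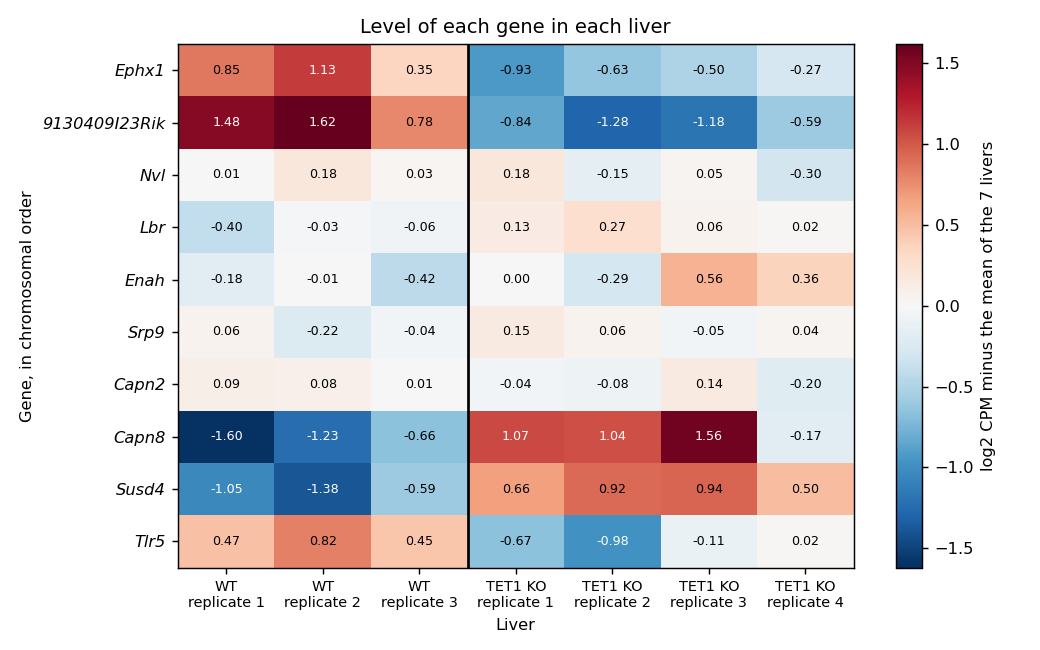
Log2 CPM of each of the 10 genes in each liver minus that gene's mean over the 7 livers, with the value printed in each cell; rows follow chromosomal order and the vertical line parts WT from TET1 KO. Ephx1 and 9130409I23Rik take one sign and Susd4 the opposite sign in every liver, as does Capn8 except in TET1 KO replicate 4 (-0.17). In these 4 genes WT replicate 3 and TET1 KO replicate 4 lie closest to 0 within their groups.

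In 5 of the 10 genes (Ephx1, 9130409I23Rik, Capn8, Susd4 and Tlr5) the same livers were the intermediate ones. Among TET1 KO livers, replicate 4 was the one nearest to WT in all 6 genes without overlap. Among WT livers, replicate 3 was the one nearest to TET1 KO in 5 of these 6 genes, the exception being Lbr. Over the 3327 genes of the whole table without overlap, TET1 KO replicate 4 was nearest to WT in 48.3% and WT replicate 3 nearest to TET1 KO in 33.7%, and both held in 14.9%. On the first principal component of all genes, which held 48.7% of the variance, TET1 KO replicate 4 stood at 1.6 between the other TET1 KO livers at 20.6 to 57.1 and the WT livers at -56.9 to -19.4. WT replicate 3 stood at -28.9, between the other WT livers. The order seen at this locus in TET1 KO replicate 4 was thus also present in the rest of the transcriptome, and its part in the members' differences was not tested.

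To describe the surrounding stretch, the other annotated genes were taken by position, with the 10 genes left out. Of those 10, 5 (50.0%) had an unadjusted p under 0.05 and 6 (60.0%) did not overlap. Fold changes helped to choose them, so leaving them out lowers the shares below. Nothing about the stretch is read from these shares. The segment ran from the outermost of the 10 genes to 25 annotated genes beyond each end and held 72 other genes, of which 34 were tested. Of these 34, 0 were called by edgeR, beside 2.02% of all genes tested, and 4 (11.8%) had an unadjusted p under 0.05, beside 26.3%. DESeq2 called 1. The groups did not overlap in 3 of 34 (8.82%), beside 22.5% of all genes. With 10 or 50 annotated genes beyond each end this share was 5.88% or 15.1%, and edgeR called 0 in either. The median log2 fold change was 0.06, and the values ran from -0.66 to 0.88. None of the 34 differed by as much as Tlr5 in either direction, a size reached by 6.77% of all genes tested. That size came from a gene left out beforehand, as were the 4 called genes that exceed it. It is thus no result about the stretch. The median difference of the 34 without regard to sign was 0.16 beside 0.29.

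The 4 with the smallest p were Rpl35a-ps2, 1700047M11Rik, Cdc42bpa and Psen2. Rpl35a-ps2, a processed pseudogene of a ribosomal protein gene whose reads may come from its parent or other copies, had 22.5 ± 7.40 CPM in WT and 41.4 ± 11.5 CPM in TET1 KO livers (SD, n = 3 and 4). Its log2 fold change was 0.88 ± 0.26 (SE) with an edgeR adjusted p of 0.0828, and overlapping groups. It was the 1 gene of the segment called by DESeq2, with an adjusted p of 0.0218, and by edgeR without TET1 KO replicate 4, with an adjusted p of 0.0441. 1700047M11Rik was at 1.58 ± 0.346 CPM in WT and 2.56 ± 0.299 CPM in TET1 KO, without overlap. Cdc42bpa, a kinase gene of actin regulation, was at 24.1 ± 4.92 and 18.0 ± 1.76 CPM, also without overlap. Psen2, which encodes presenilin 2 of the γ-secretase complex, was at 169 ± 28.4 and 217 ± 30.5 CPM with overlapping groups.

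Between Ephx1 and Tlr5 lie 22 other annotated genes, of which 7 were tested and 0 called. Their log2 fold changes were 0.02 for Cnih4, -0.15 for Wdr26, 0.88 for Rpl35a-ps2, -0.35 for Degs1, 0.70 for 1700047M11Rik, -0.16 for Fbxo28 and 0.06 for Trp53bp2, with signs of Cnih4 and Trp53bp2 that turned with library-size scaling. Degs1 encodes the desaturase that makes ceramide, and Trp53bp2 a partner of the tumour suppressor p53. Ephx1 and 9130409I23Rik, and Capn8 and Susd4, were the called genes, with uncalled genes between and around them. Since fold changes helped to choose the 10 genes, no spatial pattern is read from this. It also depends on the threshold, which Capn8 and Tlr5 crossed in several alternatives. Over chromosome 1 as a whole, 19 of 852 tested genes (2.23%) were called, 9 higher and 10 lower, of which the 4 described here are part.

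**Figure D3:**
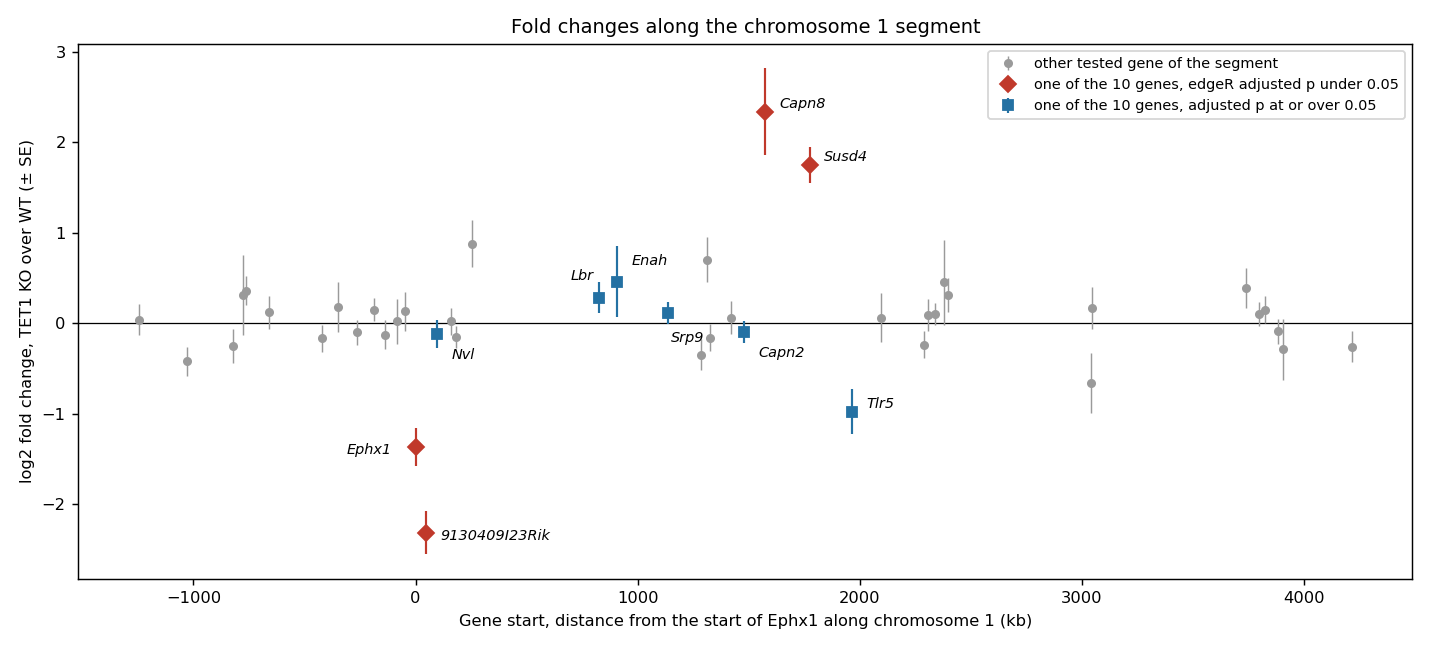
Log2 fold change (TET1 KO over WT, ± SE) of the 10 genes and of the other 34 tested genes of the segment against the distance of the gene start from that of Ephx1 along chromosome 1, in kb. The 4 called genes stand at -1.37, -2.32, 2.34 and 1.75, the other tested genes of the segment between -0.66 and 0.88.

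The genes around Tet1 on chromosome 10 were set beside this segment, since DNA of the strain in which an allele was made can be carried along on either side of it. Of the 50 annotated genes on each side, 39 were tested and 1 was called (2.56%, beside 2.02% of all genes tested). In 8 (20.5%, beside 22.5%) the groups did not overlap, 4 higher and 4 lower in TET1 KO. With 100 genes on each side it was 21 of 80 (26.2%). Of these, 4 were higher and 17 lower in TET1 KO, beside 11.7% and 10.8% of all genes. The called gene was Arid5b, which encodes a DNA-binding factor with an ARID domain. It had 71.1, 48.1 and 48.2 CPM in WT and 28.5, 28.4, 19.1 and 36.3 CPM in TET1 KO livers, without overlap. Its log2 fold change was -0.99 ± 0.21 (SE), with an edgeR adjusted p of 0.0437. This call was lost when single livers were left out, except without TET1 KO replicate 4: the adjusted p was 0.0704, 0.130 and 0.0541 without WT replicates 1, 2 and 3, and 0.0752, 0.0960 and 0.0952 without TET1 KO replicates 1, 2 and 3. The deposited counts hold no alleles, so that loss of TET1 and strain DNA carried over on chromosome 1 or 10 cannot be told apart at any of these genes.

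**Figure D4:**
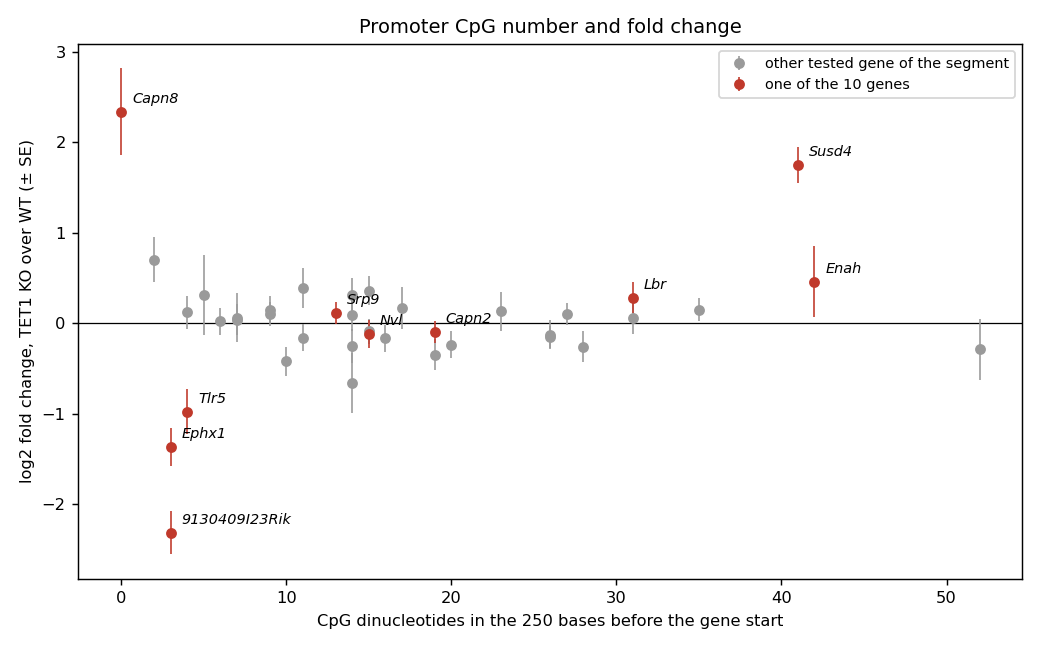
Number of CpG dinucleotides in the 250 bases before the gene start (RefSeq, GRCm38.p6) against the log2 fold change (TET1 KO over WT, ± SE) for the 10 genes and the 29 other tested genes of the segment with a promoter in the table. Ephx1, 9130409I23Rik, Capn8 and Tlr5 had 0 to 4 CpG, and Susd4 is drawn at its start with more CpG, 41 (its other start had 10).

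All 10 genes had a promoter in the table. Besides the promoters printed above, Tlr5 had 4 CpG, Srp9 13, Nvl 15, Lbr 31 and Enah 42. Of the 4 called genes and Tlr5, picked by fold change, Ephx1, 9130409I23Rik, Capn8 and Tlr5 had at most 4 CpG. Of all tested genes with a promoter, 12.2% had so few. Susd4 had 41 or 10 depending on the start. Fold changes helped to choose these genes, which were then left out of the other segment genes. No link between CpG number and change is read from them. Of the 29 other tested genes of the segment with a promoter, 2 had at most 4 CpG and 18 had at least 13. The 10327 tested genes with a promoter were each scored at the start with the most CpG. Called were 4.70% of those with at most 4 CpG, 2.18% of those with 5 to 12 and 1.55% of those with at least 13. The median difference without regard to sign was 0.35, 0.27 and 0.25 on the log2 scale. These shares are a description over genes, which are not independent replicates.

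Genes related to the members by function were examined as lists, 105 genes in 8 lists, of which 94 were tested and 3 called (3.19%, beside 2.02% of all genes tested). All 3 were lower in TET1 KO livers, and the median log2 fold change was -0.03. DESeq2 called 9 genes of these lists, 3 higher and 6 lower. Among 16 tested genes of epoxide hydrolysis and microsomal drug oxidation, 0 were called higher and 2 were called lower. Ugdh, which makes the UDP-glucuronate used in conjugation, was at 181 ± 34.9 CPM in WT and 82.7 ± 6.96 CPM in TET1 KO (SD, n = 3 and 4), with a log2 fold change of -1.13 ± 0.15 (SE) and an edgeR adjusted p of 0.00735. Nqo1, a quinone reductase, was at 9.17 ± 1.55 and 3.75 ± 1.22 CPM, a log2 fold change of -1.28 ± 0.26 (SE) with an edgeR adjusted p of 0.0375. The Nqo1 call was lost without WT replicate 1 or 2 or TET1 KO replicate 2 or 3, with edgeR adjusted p-values of 0.0634, 0.149, 0.0860 and 0.0650. Gclc, the catalytic subunit of the first enzyme of glutathione synthesis, was at 299 ± 84.2 and 162 ± 29.0 CPM without overlap, with an edgeR adjusted p of 0.0553. Nr1i3, which encodes the xenobiotic receptor CAR, was higher in TET1 KO at 421 ± 97.8 and 622 ± 79.9 CPM, also without overlap, and was not called.

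Among 9 tested genes of the calpain family, 0 were called, and the median log2 fold change was -0.18. Capn15 had a log2 fold change of 0.47, Capn7 of -0.29 and Cast, which encodes the calpain inhibitor calpastatin, of -0.34. Among 14 tested sushi domain and complement regulators, 0 were called. Cd55, which speeds the decay of complement convertases, had a log2 fold change of -0.57, and C4bp, the C4b-binding protein, of -0.47. The median of this list was -0.28, and 3 of the 14 (21.4%) had an unadjusted p under 0.05, beside 26.3% of all genes tested.

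Of 14 tested Toll-like receptor and adaptor genes, 1 was called. Tlr12, a receptor for profilin-like proteins of parasites, was at 10.6 ± 3.95 CPM in WT and 4.22 ± 1.03 CPM in TET1 KO, with a log2 fold change of -1.33 ± 0.27 (SE) and an edgeR adjusted p of 0.0370. The Tlr12 call was lost without WT replicate 1 or 2 and without TET1 KO replicate 1, 2 or 3, with edgeR adjusted p-values of 0.0523, 0.192, 0.0647, 0.0897 and 0.0735. Among 8 tested genes of the signal recognition particle 0 were called, and the values furthest from 0 were -0.86 for Srp54a and -0.92 for Srp54b, near-identical copies whose reads cannot be assigned with certainty. Among 12 nuclear envelope genes 0 were called, with Sun1 at 0.63, Tm7sf2, a sterol reductase related to Lbr, at 0.69 and Sun2 at 0.44. Among 12 genes of Ena/VASP and actin assembly 0 were called, with Actr2 at -0.35. Among 9 partners of Nvl in ribosome assembly 0 were called, and the median log2 fold change was 0.22. Mtrex, at -0.62, lay on the other side of 0.

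The transcripts most like a called gene in pattern over the 7 livers were found by the root mean square difference of log2 CPM. Each gene was centred on its own mean but not scaled, so that unlike sizes of fold change raise the difference. For Ephx1 the closest transcripts were Gas2 (0.115), Tlr12 (0.141) and Insig2 (0.15), while Tlr5 ranked 97 and 9130409I23Rik 1249 among all tested genes. Insig2, an endoplasmic reticulum protein that holds back sterol synthesis, is also on chromosome 1 but outside the segment. For 9130409I23Rik they were Aqp4 (0.275), Tceal8 (0.284) and Apoa4 (0.295), and Ephx1 ranked 38 among all tested genes. For Susd4 they were Cyp4a12b (0.158), Cyp2c54 (0.244) and Sspo (0.275), and Capn8 ranked 73. For Capn8 they were Zbtb7c (0.292), Mup8 (0.316) and Mup9 (0.342), and Susd4 ranked 8. The Mup genes are near-identical copies, so that their separate values are uncertain. In none of these 4 rankings was the closest gene one of the 10, and the likeness includes the difference between genotypes.

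The summed level of the cholangiocyte markers was 29.7 to 37.9 CPM in WT and 46.2 to 67.9 CPM in TET1 KO livers, without overlap. Of the 5 tested markers 0 were called, and 4 had an unadjusted p under 0.05, beside 26.3% of all genes tested. Hepatocyte markers summed to 59800 to 80300 CPM in WT and 74100 to 80800 CPM in TET1 KO livers. The part of cell makeup in the levels of Susd4, Capn8, Ephx1 or 9130409I23Rik was not tested.

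**Figure D5:**
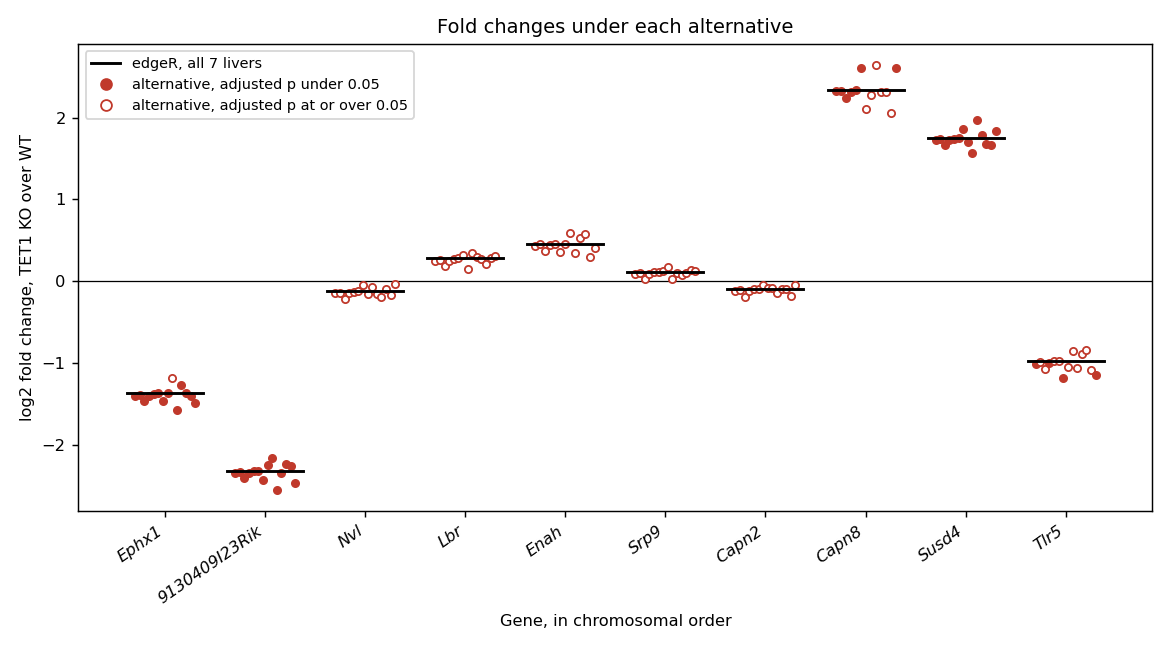
Log2 fold change (TET1 KO over WT) of each of the 10 genes in edgeR with all 7 livers (black line) and under each alternative (points; filled where the adjusted p was under 0.05), including the 7 fits that each leave out 1 liver. No gene changed sign in these fits; 9130409I23Rik and Susd4 kept their calls in all 14 alternatives, and Ephx1 (without WT replicate 2), Capn8 and Tlr5 moved across the threshold.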

How the data were processed

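mRNA from the livers of HFD-fed mice, 3 WT and 4 TET1 KO, was measured by stranded RNA-seq. Groups and replicate numbers came from the sample labels, which do not say more of each mouse. The p-values set the difference between genotypes against the variation between these livers. The authors deposited 1 table of raw read counts per liver, made per the labels' processing notes with Trimmomatic 0.36, GSNAP and featureCounts 1.5.3 on GRCm38. The strand setting of the counting and the annotation release are not given in the sources used here, so that overlapping and antisense genes are uncertain. Each table held 51431 entries, 5 of them repeated.

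Genes were filtered with filterByExpr, scaled by TMM and tested with edgeR 4.0.16 (quasi-likelihood, R 4.3.3), with Benjamini-Hochberg adjustment over the 14754 genes tested and a threshold of 0.05. CPM were computed from the counts and TMM-scaled library sizes, and the SE of a log2 fold change from its F statistic. DESeq2 1.42.0, RLE and library-size scaling, other filters, robust dispersions, a block for the replicate number and leaving out each liver were alternatives. The fit was tested on simulated data. Positions came from RefSeq (GRCm38.p6, 37273 genes matched), exon lengths from GENCODE M1.

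The members and lists were chosen with earlier results of these data known. Named in the text were every member, called genes of the segment, of the functional lists and near Tet1, up to 3 others of a list by smallest p (1 such gene is not reported here), and the 3 genes closest in pattern to each called member. The remaining tested genes between Ephx1 and Tlr5 were named after their values were seen.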

Additional observations from a re-analysis of the deposited data

Results flagged for a closer look

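Tceal8, named for its likeness to 9130409I23Rik, had 12.1, 11.6, 7.82 and 11.6 CPM in the TET1 KO livers, where replicate 3 stood apart with a gap of 0.886 of the range of the group. Its level was 61.4, 53.5 and 48.5 CPM in the WT livers. Of 56 genes examined in this way 1 stood out, and chance gives about 5 in 100.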

How the results depend on the processing

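Of 56 genes with fold changes recomputed, 2 uncalled ones turned sign. Cnih4 (0.02) was -0.07 with library size only, -0.01 with the replicate block, and -0.00 with DESeq2 or no filter, and -0.05 to 0.06 when 1 liver was left out. Trp53bp2 (0.06) was -0.04 with library size only and -0.04 to 0.19 when 1 liver was left out. Over all genes, edgeR called 298; DESeq2 called 1315, no filter on low counts 592, and leaving out 1 liver between 37 (without WT replicate 2) and 891 (without TET1 KO replicate 4). The number of calls thus depended strongly on single livers. Of the 10 members, 4 were called, and 2 to 5 when 1 liver was left out, the 2 without WT replicate 2 being 9130409I23Rik and Susd4. Of the other tested genes of the segment, DESeq2 called 1, and leaving out 1 liver gave 0 to 1. Of the functional lists, 3 genes were called, 9 by DESeq2 and 1 to 4 when 1 liver was left out. Near Tet1, 1 gene was called, 3 by DESeq2, 0 to 2 when 1 liver was left out and 0 with 25 genes on each side. Scaling by library size only moved the share of higher genes among all calls from 43.3% to 25.5% and the median log2 fold change of all genes from 0.01 to -0.08. With the replicate number as a block, edgeR called 1327 genes in all, 1 other gene of the segment, 6 of the functional lists and 5 near Tet1, and Tlr5 had an adjusted p of 0.0402. The labels do not say that the numbers pair livers, and same-numbered livers of the 2 genotypes correlated at 0.21, -0.12 and -0.10 in their deviations from the group means, so that the block was not used. Without the filter on low counts Tlr5 had an edgeR adjusted p of 0.0412, and a minimum of 10 reads in every liver removed Capn8 and Enah. The depth limits Capn8 and Enah most, with 6 to 68 and 7 to 19 reads per liver.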
